A study of Homo sapiens with 24 samples.

Results

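The expression of 10 genes of the TGF-beta pathway was followed over the first 2 hours of EGF in MCF10A cells, a non-tumorigenic human breast epithelial line. They were the ligand genes INHBA, TGFB1 and TGFB2, the receptor genes TGFBR1 and TGFBR2, the pseudoreceptor gene BAMBI, the signal transducer SMAD3, the inhibitory SMADs SMAD6 and SMAD7, and the corepressor gene SKIL. Members were the probe sets whose only symbol was 1 of these names. All 10 genes had exactly 1 such probe set, among 18417 genes with a probe set of their own. The 24 arrays, of the type Affymetrix Human Gene 1.0 ST, formed 12 groups of 2 replicates. Oligofectamine carried a non-targeting oligonucleotide (control), an oligonucleotide against miR-20a (si-miR-20a) or another against miR-671-5p (si-miR-671), and each culture had 0, 30, 60 or 120 min of EGF before its RNA was isolated. Every group had been grown in medium that held EGF, horse serum, insulin, hydrocortisone and cholera toxin, so 0 min is no state without earlier EGF. There were no arrays without EGF at the later times, so EGF and time or handling cannot be told apart. The mature microRNAs were not measured, so how far either oligonucleotide lowered its target is not known from these arrays.

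TGF-beta family ligands bind pairs of type II and type I receptor kinases, which phosphorylate receptor SMADs such as SMAD3; these join SMAD4 and act on genes in the nucleus. The pathway is held in check by its own products: SMAD6 and SMAD7 occupy the receptors, BAMBI is a receptor-like protein without a kinase, and SKIL (SnoN) is a nuclear protein that holds SMAD complexes inactive. In breast epithelium TGF-beta is known for stopping growth, and EGF for driving it.

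The oligonucleotides were named for 2 microRNAs, whose mature sequences from RefSeq (GRCh38.p14) are shown because the seed is what a microRNA pairs with its targets. miR-17-5p, encoded beside miR-20a on chromosome 13, is shown to compare seeds. Capitals mark the seed, bases 2 to 8.
hsa-miR-20a-5p: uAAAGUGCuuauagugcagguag
hsa-miR-17-5p: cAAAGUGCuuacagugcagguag
hsa-miR-671-5p: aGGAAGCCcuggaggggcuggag
The seed of miR-20a-5p was carried by 8 of the 2370 mature microRNAs in the table, and that of miR-671-5p by 1. miR-20a-5p lies at chr13:91351072-91351094 and miR-671-5p at chr7:151238449-151238471, both on the plus strand.

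Values are the authors' log2 levels, on which a difference of 1 is a doubling. Errors of differences are standard errors of the model. The adjusted p is from limma with Benjamini-Hochberg adjustment over 19460 probe sets, and a call is an adjusted p under 0.05. The array medians lay between 6.56 and 6.57 and the upper quartiles between 8.26 and 8.28. All 6 epithelial markers measured (EPCAM, CDH1, KRT5, KRT14, KRT18 and ITGA6) lay above the array median in every group. Of 9 mesenchymal markers 4 did, with VIM at 11.2 to 11.7 and CDH2 at 8.24 to 8.60 but LUM at 2.78 to 4.37. Of 7 blood and endothelial markers 3 did, CDH5 at 10 to 10.8, CD14 at 7.59 to 8.38 and CD68 at 7.5 to 7.9, but PTPRC lay at 3.89 to 4.84. The group means of the mesenchymal list lay between 6.73 and 7.03 and those of the blood and endothelial list between 6.72 and 6.89. Labels call the replicates biological. Their origin in separate transfections is not stated, so p-values measure the spread between these arrays.

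By 120 min of EGF 6 of the 10 genes had risen, and none was called lower. Averaged over the 3 transfections (6 arrays against 6), INHBA was called higher at 30 min, against a background of 0.766% of all probe sets called. INHBA, SMAD7 and SKIL were called at 60 min, where 2.66% of all probe sets were. At 120 min TGFB2, BAMBI and SMAD3 were called as well, making 6 of 10 against 13.4% of all probe sets. The 10 genes were chosen with earlier results of these data known, so these counts beside all probe sets are a description, not a test. The median change of the 10 was 0.06, 0.13 and 0.39 at the 3 times, beside -0.01, 0.00 and 0.01 over all probe sets. RNA was taken from whole cultures, in which more cells expressing a gene and more RNA per cell cannot be told apart.

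**Figure D1:**
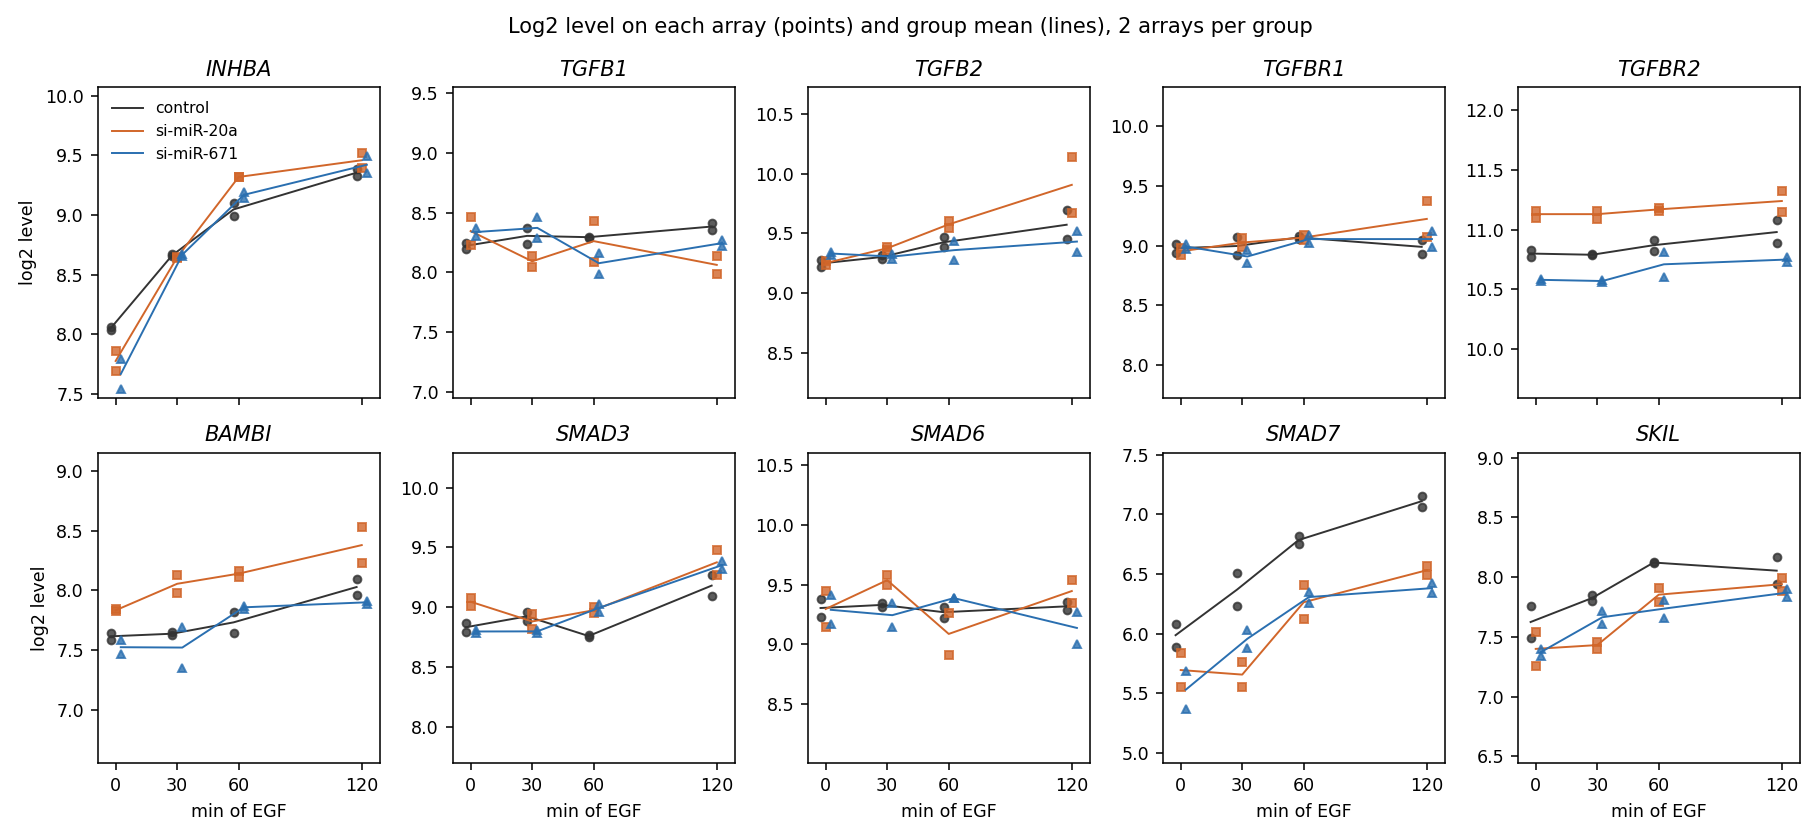
Log2 level (y axis) of each of the 10 genes against min of EGF (x axis) in control (black circles), si-miR-20a (orange squares) and si-miR-671 (blue triangles); points are single arrays, lines join group means, and every panel spans the same number of log2 units. INHBA climbs in all transfections, SMAD7 climbs at a lower level with either oligonucleotide, and TGFBR2 forms 3 bands with si-miR-20a on top.

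Among the ligands, INHBA moved most. INHBA encodes the beta A subunit of activin A, a ligand that signals through SMAD2 and SMAD3. In control, INHBA lay at 8.06 and 8.04 at 0 min, 8.67 and 8.65 at 30 min, 9.10 and 8.99 at 60 min, and 9.38 and 9.33 at 120 min. With si-miR-20a INHBA lay at 7.86 and 7.69, then 8.64 and 8.65, then 9.32 and 9.32, and last 9.40 and 9.52 at the same times. With si-miR-671 it lay at 7.54 and 7.79, then 8.68 and 8.66, then 9.19 and 9.14, and last 9.35 and 9.49. In each transfection both arrays of every later time lay above both 0 min arrays, and the 0 min arrays of both oligonucleotides lay below the 2 of control. The averaged rise was 0.83 ± 0.05 at 30 min (adjusted p = 1.1e-07), 1.35 ± 0.05 at 60 min (2.54-fold, adjusted p = 1.4e-10) and 1.58 ± 0.05 at 120 min (2.99-fold, adjusted p = 2.4e-11; limma). Further steps were tested between the later times. The step from 30 to 60 min was 0.52 (adjusted p = 6.3e-05), a comparison in which INHBA and SMAD7 were the 2 members called and 1.00% of all probe sets were. The step from 60 to 120 min was 0.23 (adjusted p = 0.016), where INHBA and SMAD3 were called and 4.92% of all probe sets were. These step comparisons were chosen after values were seen.

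The 120 min rise of INHBA was 1.31 ± 0.09 in control, 1.68 ± 0.09 with si-miR-20a and 1.75 ± 0.09 with si-miR-671. Against control at the same time, INHBA with si-miR-20a differed by -0.27 at 0 min and by 0.27 at 60 min. With si-miR-671 it differed by -0.38 and by 0.12, and none of these was called. The response of INHBA, counted from these lower 0 min levels, exceeded that of control at 60 min by 0.54 (95% interval 0.27 to 0.82) with si-miR-20a and by 0.50 (0.23 to 0.78) with si-miR-671. These intervals are unadjusted, and limma's F over the 3 times gave an unadjusted p of 0.0057 (adjusted 0.77) and of 0.0058 (adjusted 0.33). No member's EGF response was called different from control in either case, and 0.0154% (si-miR-20a) and 0.0514% (si-miR-671) of all probe sets were. At an unadjusted level of 0.05 limma's F test picked INHBA alone for si-miR-20a, and for si-miR-671 INHBA and SMAD3 (unadjusted p = 0.031, adjusted p = 0.50). Averaged over times, INHBA differed from control by 0.02 (interval -0.08 to 0.12) with si-miR-20a and by -0.05 (-0.14 to 0.05) with si-miR-671. These averages join early and late differences of opposite sign. Over 0 and 30 min INHBA differed by -0.14 with si-miR-20a and by -0.19 with si-miR-671. Over 60 and 120 min it differed by 0.19 and by 0.09, and none of these was called.

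TGFB2, which encodes another of the 3 TGF-beta ligands, rose late. TGFB2 in control was at 9.28 and 9.21 at 0 min, 9.29 and 9.32 at 30 min, 9.47 and 9.38 at 60 min, and 9.69 and 9.45 at 120 min. With si-miR-20a it was at 9.27 and 9.24, then 9.36 and 9.39, then 9.54 and 9.61, and last 9.67 and 10.14. With si-miR-671 it was at 9.32 and 9.34, then 9.33 and 9.28, then 9.28 and 9.44, and last 9.34 and 9.52. The highest of all 24 values was 1 si-miR-20a array at 120 min, and the si-miR-671 arrays at 120 min overlapped their 0 min pair. The averaged rise at 120 min was 0.36 ± 0.07 (1.28-fold, adjusted p = 0.0034), against 0.18 (adjusted p = 0.31) at 60 min. Within transfections it was 0.65 ± 0.12 with si-miR-20a (adjusted p = 0.0048), 0.32 in control (adjusted p = 0.27) and 0.10 with si-miR-671 (adjusted p = 0.71). The difference between the si-miR-20a and control responses at 120 min was 0.33 (interval -0.05 to 0.71), which was not called. TGFB2 differed from control by 0.14 ± 0.06 with si-miR-20a over all times (adjusted p = 0.12). Without the lower of the si-miR-20a arrays at 120 min, replicate 1, that difference was 0.20 (adjusted p = 0.0065) and the difference from si-miR-671 was 0.23 (adjusted p = 0.011), both then called.

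TGFB1, the best known ligand of the family, was not called in any averaged comparison. Its 24 values lay between 7.99 and 8.46. At 120 min of EGF its averaged difference from 0 min was -0.07 ± 0.07 (interval -0.21 to 0.07). TGFB1 differed from control by -0.11 (interval -0.23 to 0.01) with si-miR-20a and by -0.04 (-0.17 to 0.08) with si-miR-671. The intervals of these 3 differences all hold 0.

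**Figure D2:**
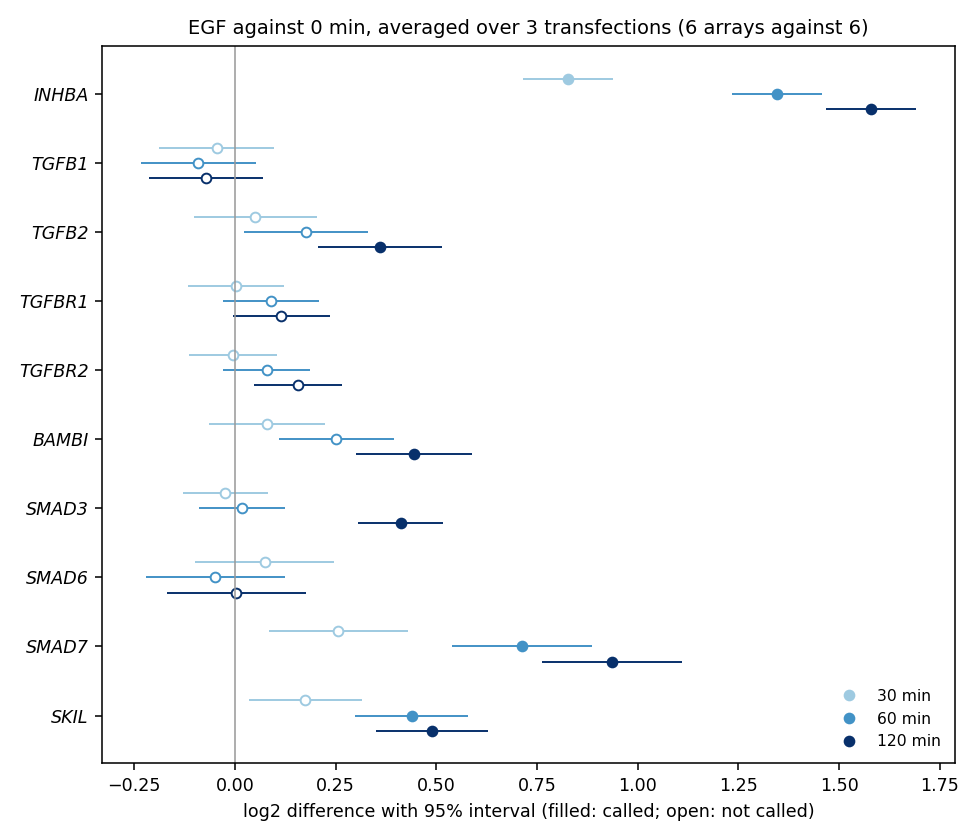
Averaged log2 difference (x axis, with 95% intervals) of each gene (y axis) at 30, 60 and 120 min of EGF against 0 min, over 3 transfections and 6 arrays against 6; filled points were called by limma at an adjusted p under 0.05 and open ones were not. INHBA reaches 1.58 and SMAD7 0.94 at 120 min, while TGFB1 and SMAD6 stay near 0.

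The 2 signalling receptors moved little with EGF, and TGFBR2 differed between transfections. TGFBR1, the type I receptor kinase that phosphorylates SMAD3, held 24 values between 8.86 and 9.38, the highest being a si-miR-20a array at 120 min. Its averaged difference at 120 min was 0.12 ± 0.06 (adjusted p = 0.21), and it differed from control by 0.06 (interval -0.05 to 0.16) with si-miR-20a and by -0.01 (-0.11 to 0.10) with si-miR-671. Without replicate 1 of si-miR-20a at 120 min, the EGF difference was 0.17 (adjusted p = 0.032).

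TGFBR2, the type II receptor kinase that binds ligand first and a published target of the miR-17 seed family, stood at 3 levels. In control TGFBR2 lay at 10.83 and 10.77 at 0 min, 10.79 and 10.80 at 30 min, 10.91 and 10.82 at 60 min, and 11.08 and 10.89 at 120 min. With si-miR-20a TGFBR2 lay at 11.10 and 11.16, then 11.16 and 11.09, then 11.18 and 11.16, and last 11.15 and 11.32. With si-miR-671 it lay at 10.57 and 10.59, then 10.58 and 10.56, then 10.60 and 10.81, and last 10.73 and 10.77. At all 4 times both si-miR-20a arrays lay above both control arrays, and both si-miR-671 arrays below them. TGFBR2 was 0.31 ± 0.04 higher than control with si-miR-20a (1.24-fold, adjusted p = 0.00012) and fell by 0.21 with si-miR-671 (SE 0.04, adjusted p = 0.0045). Between the oligonucleotides, which share no arrays in that comparison, it was 0.52 ± 0.04 higher with si-miR-20a (1.43-fold, adjusted p = 1.7e-05). The exact permutation test within times gave a two-sided p of 0.0015 for each of these 3 differences, the smallest that its permutations can give. Over EGF time TGFBR2 was 0.16 ± 0.05 higher at 120 min (adjusted p = 0.056), a value that crossed the threshold on leaving out control replicate 2 at 120 min (0.19, adjusted p = 0.026) or si-miR-20a replicate 1 at 120 min (0.18, adjusted p = 0.024), or either si-miR-671 array at 60 min (adjusted p = 0.048).

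BAMBI, the decoy that resembles a type I receptor, rose with EGF and was higher with si-miR-20a. In control BAMBI was at 7.64 and 7.58 at 0 min, 7.62 and 7.65 at 30 min, 7.82 and 7.65 at 60 min, and 8.09 and 7.96 at 120 min. With si-miR-20a BAMBI was at 7.82 and 7.84, then 8.13 and 7.98, then 8.16 and 8.12, and last 8.23 and 8.53. With si-miR-671 it was at 7.46 and 7.58, then 7.35 and 7.69, then 7.85 and 7.87, and last 7.91 and 7.89. At all 4 times the si-miR-20a arrays of BAMBI lay above those of control and of si-miR-671, with no overlap. BAMBI rose by 0.45 ± 0.07 at 120 min of EGF (1.36-fold, adjusted p = 0.00032), with 0.25 ± 0.07 at 60 min (adjusted p = 0.067). That 60 min value passed on leaving out either si-miR-671 array at 30 min (adjusted p = 0.035) or either si-miR-20a array at 120 min (adjusted p = 0.034), none of which enters the difference itself. With si-miR-20a BAMBI was 0.35 ± 0.06 higher than control (1.27-fold, adjusted p = 0.00042) and 0.40 ± 0.06 higher than with si-miR-671 (adjusted p = 0.0014). With si-miR-671 it differed from control by -0.05 (interval -0.18 to 0.07).

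SMAD3, which carries TGF-beta and activin signals to the nucleus, rose late. In control SMAD3 lay at 8.87 and 8.79 at 0 min, 8.88 and 8.96 at 30 min, 8.75 and 8.77 at 60 min, and 9.27 and 9.09 at 120 min. With si-miR-20a SMAD3 lay at 9.08 and 9.01, then 8.95 and 8.81, then 8.95 and 9.0, and last 9.27 and 9.48. With si-miR-671 it lay at 8.78 and 8.81, then 8.81 and 8.78, then 8.96 and 9.03, and last 9.38 and 9.32. In all 3 transfections both 120 min arrays lay above the other 6 arrays of that transfection. The averaged difference from 0 min was -0.02 at 30 min, 0.02 at 60 min and 0.41 ± 0.05 at 120 min (1.33-fold, adjusted p = 3.6e-05), and the step from 60 to 120 min was 0.39 ± 0.05 (adjusted p = 0.00013). With si-miR-20a SMAD3 was 0.15 ± 0.04 higher than control (adjusted p = 0.022). That call was lost without control replicate 2 at 0 min (0.14, adjusted p = 0.054), control replicate 1 at 30 min (0.14, adjusted p = 0.055), control replicate 2 at 120 min (0.12, adjusted p = 0.054) or si-miR-20a replicate 1 at 30 min (0.13, adjusted p = 0.059), and in a fit on the compared arrays only (adjusted p = 0.065). With si-miR-671 the difference was 0.06 (interval -0.03 to 0.15) over all times.

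SMAD6, the inhibitory SMAD tied mainly to BMP signals, was not called in any averaged comparison. Its 24 values lay between 8.91 and 9.58, both extremes among si-miR-20a arrays. At 120 min of EGF its averaged difference was 0.00 ± 0.08 (interval -0.17 to 0.18). SMAD6 differed from control by 0.04 (-0.11 to 0.19) with si-miR-20a and by -0.04 (-0.19 to 0.11) with si-miR-671. Limma's F test over the 12 groups gave SMAD6 an adjusted p of 0.40.

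SMAD7, the inhibitory SMAD that TGF-beta itself raises and that blocks its type I receptor, rose with EGF and was lower with both oligonucleotides. Its signal was low: the median of its 24 values was 6.245, below the array medians of 6.56 to 6.57. All SMAD7 values at 0 and 30 min, the highest being 6.51, lay below those medians. In control SMAD7 lay at 6.08 and 5.89 at 0 min, 6.51 and 6.23 at 30 min, 6.82 and 6.75 at 60 min, and 7.16 and 7.07 at 120 min. With si-miR-20a SMAD7 lay at 5.84 and 5.55, then 5.76 and 5.56, then 6.41 and 6.12, and last 6.57 and 6.50. With si-miR-671 it lay at 5.37 and 5.69, then 5.88 and 6.03, then 6.26 and 6.35, and last 6.43 and 6.34. At each of the 4 times every array of either oligonucleotide lay below both control arrays. The 120 min level of either oligonucleotide lay below the 60 min level of control. The averaged rise of SMAD7 was 0.26 ± 0.08 at 30 min (adjusted p = 0.37), 0.71 ± 0.08 at 60 min (adjusted p = 4.9e-05) and 0.94 ± 0.08 at 120 min (1.91-fold, adjusted p = 1.2e-06). Within transfections the 120 min rise was 1.12 in control, 0.84 with si-miR-20a and 0.85 with si-miR-671 (SE 0.14 each). The difference of these rises from control was -0.29 (interval -0.71 to 0.14) with si-miR-20a and -0.27 (-0.70 to 0.15) with si-miR-671, not called in either case.

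SMAD7 fell by 0.53 with si-miR-20a (SE 0.07, 1.44-fold lower than control, adjusted p = 6.3e-05) and by 0.52 with si-miR-671 (SE 0.07, 1.43-fold lower, adjusted p = 0.00013). The exact permutation p within times was 0.0015 for each, two-sided and the smallest possible. These 2 comparisons share their control arrays. Set directly against each other, the oligonucleotides differed in SMAD7 by -0.01 (interval -0.16 to 0.14). Over the arrays at 0 and 30 min SMAD7 differed from control by -0.50 ± 0.10 with si-miR-20a and by -0.43 ± 0.10 with si-miR-671, and over those at 60 and 120 min by -0.55 ± 0.10 and -0.60 ± 0.10.

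SKIL, whose protein SnoN represses SMAD target genes and which TGF-beta is known to raise, rose with EGF and was lower with both oligonucleotides. In control SKIL lay at 7.76 and 7.49 at 0 min, 7.85 and 7.80 at 30 min, 8.12 and 8.13 at 60 min, and 7.94 and 8.17 at 120 min. With si-miR-20a SKIL lay at 7.54 and 7.26, then 7.40 and 7.46, then 7.91 and 7.79, and last 7.89 and 8.0. With si-miR-671 it lay at 7.40 and 7.34, then 7.72 and 7.61, then 7.81 and 7.66, and last 7.84 and 7.90. The si-miR-671 arrays lay below both control arrays at 4 of 4 times, and the si-miR-20a arrays at 2 of 4, with overlap at 0 and 120 min. The averaged rise was 0.18 at 30 min (adjusted p = 0.63), 0.44 ± 0.07 at 60 min (adjusted p = 0.00076) and 0.49 ± 0.07 at 120 min (1.40-fold, adjusted p = 9.6e-05). SKIL fell by 0.25 with si-miR-20a (SE 0.06, adjusted p = 0.0042) and by 0.25 with si-miR-671 (SE 0.06, adjusted p = 0.0078), each 1.19-fold. Between the oligonucleotides the interval of the difference ran from -0.13 to 0.12.

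**Figure D3:**
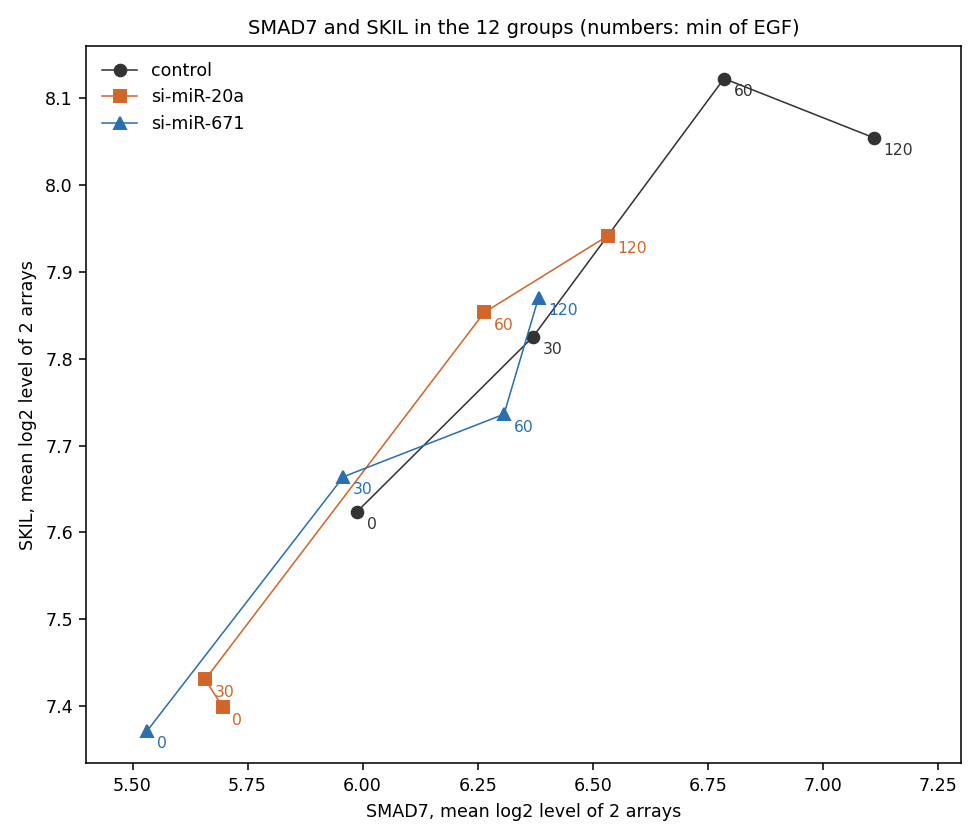
Mean log2 level of SKIL (y axis) against that of SMAD7 (x axis) in the 12 groups of 2 arrays, joined in order of EGF time within each transfection, with the min of EGF beside each point. The control points at 60 and 120 min lie highest on both axes, and the si-miR-671 point at 0 min lies lowest on both.

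Over the 12 group means the levels of SMAD7 and SKIL had a Pearson r of 0.961, a description over groups that share EGF times and arrays. Among 5604 candidate genes, each was the third most alike to the other. JMJD6 came first for both, followed by VEGFA for SMAD7 and STK17B for SKIL. The closest to INHBA were DUSP6 (r = 0.990), PHLDA1 and SPRR2G. BAMBI was most like NCEH1, TMC7 and TMEM40, and TGFBR2 most like ZNFX1, GPR137B and ACER2. TGFB2 had RPGR, B3GNT2 and SFT2D1, and SMAD3 had a probe set named MIR31, then DCAF4 and S100A3.

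Counted together against control, 5 of the 10 genes were called with si-miR-20a, namely TGFBR2, BAMBI and SMAD3 higher and SMAD7 and SKIL lower, where 24.5% of all probe sets were called. With si-miR-671 3 of the 10 were called, namely SMAD7, SKIL and TGFBR2, each lower, where 14.5% of all probe sets were called. Between the oligonucleotides TGFBR2 and BAMBI were called, 2 of 10, against 4.54% of all probe sets. Any difference among the 12 groups was called for 7 of the 10, against 19.1% of all probe sets. TGFB1 (adjusted p = 0.26), SMAD6 (0.40) and TGFBR1 (0.47) were the 3 not called by that F test.

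**Figure D4:**
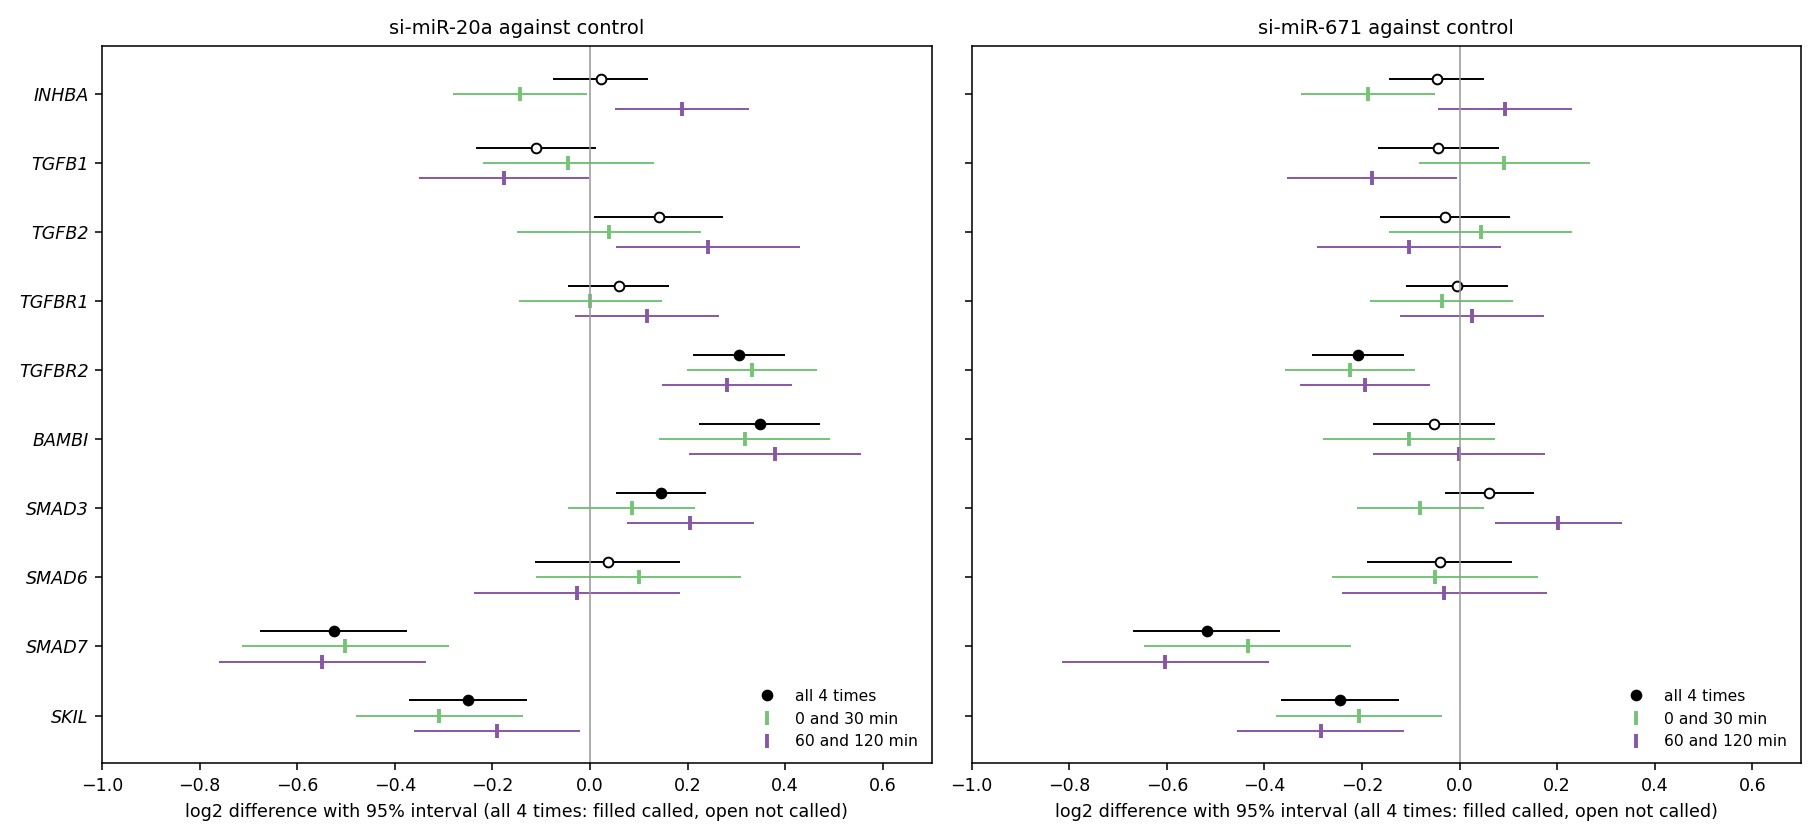
Log2 difference from control (x axis, with 95% intervals) of each gene (y axis) with si-miR-20a (left) and si-miR-671 (right), over all 4 times (8 arrays against 8) and over 0 and 30 min or 60 and 120 min (4 against 4); circles mark all 4 times, filled where limma called them, and ticks mark the split times. SMAD7 lies near -0.5 in both panels, and TGFBR2 lies on opposite sides of 0.

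Split by time, the si-miR-20a differences of TGFBR2 were 0.33 over 0 and 30 min and 0.28 over 60 and 120 min, and those of BAMBI were 0.32 and 0.38. SKIL stood at -0.31 and then at -0.19 (adjusted p = 0.13), and SMAD3 at 0.09 (adjusted p = 0.45) and then at 0.21. With si-miR-671 SMAD7 was the 1 member called over 0 and 30 min, against 2.81% of all probe sets. Over 60 and 120 min 4 were called, SMAD7 (-0.60, adjusted p = 0.00079), SKIL (-0.28, adjusted p = 0.025) and TGFBR2 (-0.19, adjusted p = 0.048) lower and SMAD3 higher (0.20, adjusted p = 0.035), against 15.4% of all probe sets. Over 0 and 30 min SKIL had been at -0.21 (adjusted p = 0.25), TGFBR2 at -0.22 (adjusted p = 0.077) and SMAD3 at -0.08 (adjusted p = 0.67). The si-miR-671 comparison called 105 and 89 probe sets at 0 and 30 min but 1592 and 1086 at 60 and 120 min, and the part of that unevenness in these values was not tested.

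Within transfections, INHBA, SMAD3 and SMAD7 were called higher at 120 min of EGF in control, 3 of 10 beside 2.96% of all probe sets called. With si-miR-20a INHBA, TGFB2, BAMBI, SMAD3, SMAD7 and SKIL rose, 6 of 10 beside 7.64%. With si-miR-671 INHBA, SMAD3, SMAD7 and SKIL rose, 4 of 10 beside 5.95%. Each rests on 2 arrays against 2. For INHBA, TGFB2, TGFBR1, TGFBR2, BAMBI and SMAD3 the highest of all 24 values came from the same array, si-miR-20a replicate 2 at 120 min. The si-miR-20a rises of these genes are thus not separate observations. In control SKIL was 0.43 higher (adjusted p = 0.058) and BAMBI 0.41 higher (adjusted p = 0.082), close in size to the averaged rises.

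Stretches of promoters are shown where a short motif occurred near a member's start, since SMAD7, SKIL and others moved together. RefSeq promoters (GRCh38.p14) of 250 bases before to 50 after each start were searched on both strands for GTCTAGAC, a palindrome that SMAD3 and SMAD4 bind, TGANTCA, the AP-1 site, and TGACGTCA, the cyclic AMP response element; none of the 3 contains another. The 10 genes had 24 promoters, from 1 to 8 each. Capitals mark the motif, with 20 bases on either side, on the plus strand.
SKIL, chr3:170357641-170357688: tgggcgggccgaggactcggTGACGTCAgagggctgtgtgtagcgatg
SMAD3, chr15:67125666-67125712: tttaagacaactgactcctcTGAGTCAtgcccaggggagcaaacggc
TGFBR2, chr3:30606575-30606621: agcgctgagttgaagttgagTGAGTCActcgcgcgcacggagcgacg
SMAD6, chr15:66702204-66702251: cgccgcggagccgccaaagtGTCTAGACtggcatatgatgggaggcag
The cyclic AMP element began 54 bases before a start of SKIL, in 1 of the 24 promoters and in 1.85% of the 35116 promoters of the table. The AP-1 site began 56 bases before a start of SMAD3 and 6 before one of TGFBR2, in 2 of 24 and 7.71% of all. The SMAD palindrome began 12 bases before a start of SMAD6, in 1 of 24 and 0.202% of all. A match is a run of letters, not a site shown to be bound. The sequences of SMAD7 and INHBA held none of the 3 in these windows, which says nothing of other regions.

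The rest of the pathway was read from 52 measured genes in 6 lists by role, also chosen with earlier results of these data known. At 30 min of EGF 9 of them were called, at 60 min 11 and at 120 min 20, those of 30 and 60 min all being higher and those of 120 min splitting into 15 higher and 5 lower. Over all probe sets the called shares were 0.766%, 2.66% and 13.4%. The medians of all 52 were 0.02, 0.06 and 0.05 at those times.

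Of 8 other corepressors and negative regulators 5 rose and 2 fell by 120 min of EGF, with a median change of 0.39, where 13.4% of all probe sets were called. PMEPA1, which keeps SMAD2 and SMAD3 from the receptor, rose by 0.69 ± 0.06 (1.62-fold, adjusted p = 4.7e-07). TGIF1, a homeobox corepressor of SMADs, rose by 0.54 at 30 min, 0.91 at 60 min and 0.62 at 120 min. SMURF1, a ubiquitin ligase that acts on SMADs and receptors, rose by 0.45, while TGIF2 fell by 0.39 and PPM1A, a phosphatase of SMADs, by 0.21.

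Among 10 genes of latency, activation and extracellular antagonism, FST and THBS1 rose. FST encodes follistatin, which binds activin and so opposes the product of INHBA, and rose by 0.59 at 60 min and 1.40 ± 0.05 at 120 min (2.63-fold, adjusted p = 8.2e-11). THBS1, thrombospondin 1, an activator of latent TGF-beta, rose by 0.71 at 120 min. BMP2 was the 1 of 8 other ligands called at 120 min, at 0.65. Of 8 other receptors and coreceptors limma called 0 at each of the 3 times, with 0, 1 and 3 at an unadjusted p under 0.05. Of 5 other SMADs SMAD1, a BMP SMAD, fell by 0.28 at 120 min.

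Of 13 genes that TGF-beta or BMP is known to raise, 7 were called at 30 min and 7 at 60 min, all higher, while 120 min gave 7 higher and 2 lower. The shares of all probe sets called were 0.766%, 2.66% and 13.4%. CCN2, a matrix-associated signalling protein, rose by 2.66 at 30 min, 3.07 at 60 min and 2.33 at 120 min. TAGLN, an actin-binding protein, rose by 1.5 at 120 min and SNAI2, a repressor of epithelial genes, by 1.04. ID3 fell by 1.15 and ID1 by 0.20 at 120 min, and both are targets of BMP signals. Earlier, ID1 had been called higher, by 0.30 at 30 min and 0.41 at 60 min, while ID3 was not called. ID2, of the same family, was called higher at 30, 60 and 120 min, by 0.62, 0.92 and 0.48. Many of these genes are also known targets of growth factors, and which signal moved them was not tested.

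**Figure D5:**
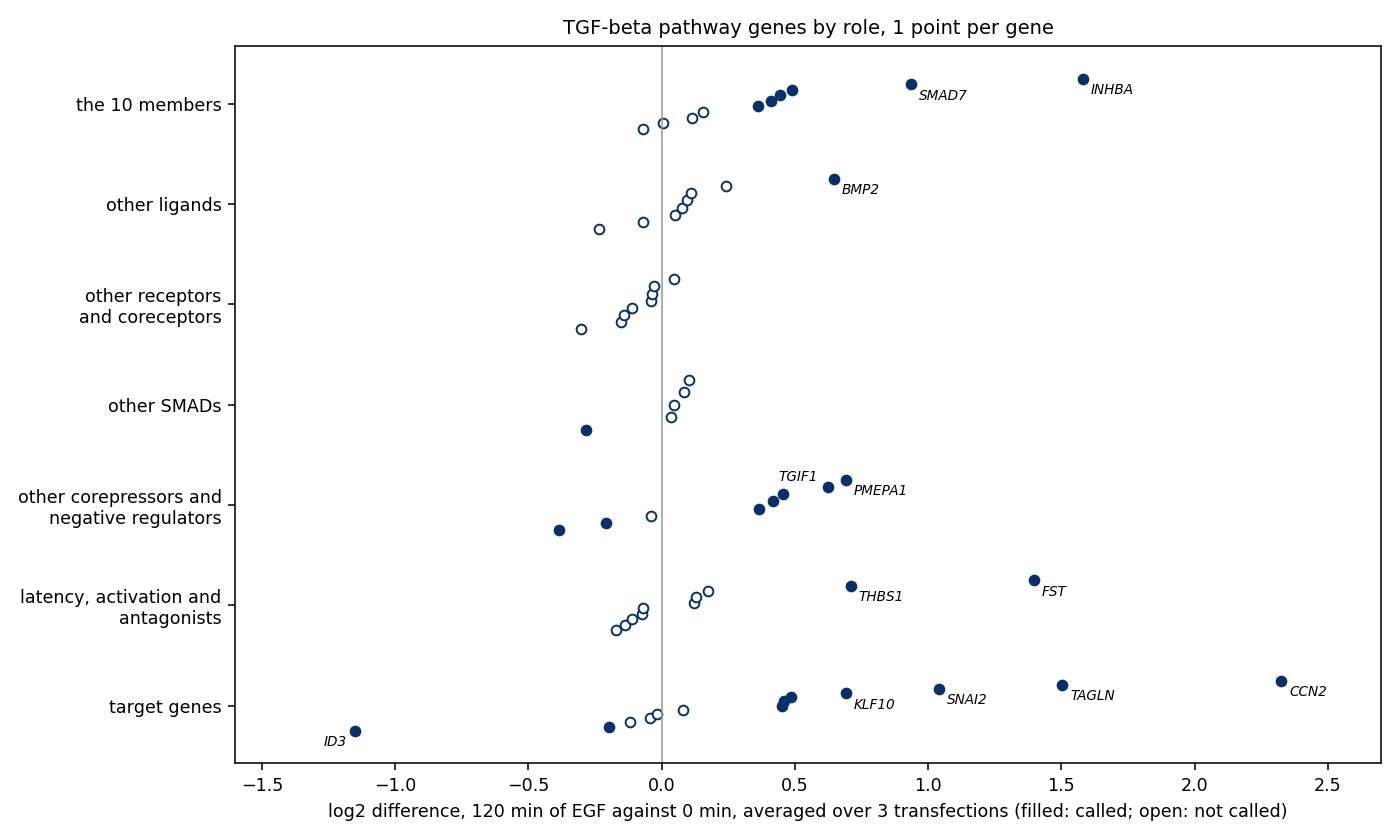
Averaged log2 difference at 120 min of EGF against 0 min (x axis) of the 10 genes and of 52 other pathway genes by role (y axis), 1 point per gene; filled points were called by limma and open ones were not, and called genes beyond 0.6 in either direction are named. INHBA (1.58), FST (1.40) and CCN2 (2.33) lie farthest right in their rows, and ID3 (-1.15) farthest left.

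Of 8 other receptors and coreceptors 4 were called lower and none higher with si-miR-20a, with a median of -0.21, where 24.5% of all probe sets were called, 2309 higher and 2462 lower. With si-miR-671 4 were also called lower and none higher, not all of them the same genes, with a median of -0.27. That comparison used the same control arrays, and 14.5% of all probe sets were called, 1322 higher and 1498 lower. TGFBR3, betaglycan, the coreceptor that presents TGF-beta2, fell by 0.58 with si-miR-20a and by 0.54 with si-miR-671. ACVR2A, an activin receptor, fell by 0.49 and by 0.39. ACVR1 fell by 0.31 and by 0.37. ACVR2B fell by 0.33 with si-miR-20a and differed by -0.28 with si-miR-671 (adjusted p = 0.066). BMPR2 fell by 0.26 with si-miR-671 (adjusted p = 0.0045) and differed by -0.11 with si-miR-20a, where it was not called. TGFBR2 with si-miR-20a, at 0.31 higher, thus went against the called receptors of that comparison.

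Other roles were mixed. SMAD1 fell by 0.52 with si-miR-20a and by 0.40 with si-miR-671. ITGAV, an integrin subunit that helps activate latent TGF-beta, fell by 0.47 and by 0.46. The 2 activin antagonists of the list went opposite ways. FSTL3, a follistatin-like antagonist, was 0.46 and 0.40 higher, while FST, follistatin itself, was called lower, by 0.25 and by 0.27. ITGB6, the partner of ITGAV, fell by 0.14 with si-miR-20a and by 0.44 with si-miR-671, and LTBP1, which tethers latent TGF-beta to the matrix, was 0.45 and 0.23 higher. In all, 25 of the 52 were called with si-miR-20a (11 higher and 14 lower) and 21 with si-miR-671 (8 higher and 13 lower), beside 24.5% and 14.5% of all probe sets. Among target genes ID3 was 0.57 higher with si-miR-20a and 0.60 higher with si-miR-671, and CDKN1A, a cell cycle inhibitor, was 0.47 higher with si-miR-20a and differed by 0.00 with si-miR-671. JUNB, ID2 and KLF10 fell with si-miR-20a by 0.33, 0.30 and 0.20, and with si-miR-671 differed by -0.08, -0.18 and -0.18, none of them called. FN1, fibronectin, fell by 0.28 with si-miR-671 and differed by -0.04 with si-miR-20a. TGFBI, a matrix protein, fell by 0.17 and by 0.16. CDKN1A was also 0.47 higher with si-miR-20a than with si-miR-671, where 7 of the 52 were called, beside 4.54% of all probe sets.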

How the data were processed

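The authors deposited 1 table of log2 values per probe set (transcript cluster), made with Affymetrix Expression Console per the submitters' processing notes. Not given in the sources used here are its version, summarisation and normalization. The log2 values were used as deposited. Of 33297 probe sets, 19460 had exactly 1 symbol in the platform table and were tested; 1754 had several, 12083 were not listed, and 0 value columns belonged to no sample. Genes had the probe set with the highest mean.

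A mean per group was fitted over all 24 arrays with limma 3.58.1 in R 4.3.3 (lmFit, eBayes without trend, 12 residual and 2.57 prior degrees of freedom, prior SD 0.136), with Benjamini-Hochberg adjustment over 19460 probe sets. The code was tested on simulated data. Exact two-sided permutations ran within times or transfections, with smallest p of 0.0015 and 0.0093. Comparisons of 2 arrays with 2 cannot pass 0.05 by permutation. Tables were written with Python 3.11.15, pandas 2.3.3 and numpy 2.4.6, and plots with matplotlib 3.10.9. Array number limits the precision.

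The members and lists were chosen with earlier results of these data known. All 10 members are named. From the lists, genes are named mostly among the 3 called ones with the largest change per direction and comparison, and not all of those are named. A gene named in a comparison may be given in others as well, whatever its rank there. BMPR2 is named beyond that rule. Likeness is Pearson's r over 12 group means, among genes whose means had an SD of at least 0.2. The alternatives were a replicate block, other normalizations, filters and weights, other sets of arrays, a 0.01 level and permutation. Whether replicate numbers pair any of the arrays is not settled. Over 66 pairs of groups the correlation of replicate differences had a median of 0.0629. It ran from -0.573 to 0.55, with 30 above 0.1. The protocol also names miR-212, not analysed here.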

Additional observations from a re-analysis of the deposited data

Results flagged for a closer look

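In 5 of 60 cases (10 genes, 2 oligonucleotides and 3 times) both arrays of an oligonucleotide had moved one way since 0 min and both of control the opposite way. That is 8.33%, beside 5.69% of such cases over all 19460 probe sets. TGFB1 did so at 60 min with si-miR-671, where the change since 0 min differed from that of control by -0.335 on the log2 scale (adjusted p = 0.46). At 120 min TGFB1 differed by -0.445 with si-miR-20a (adjusted p = 0.54) and by -0.255 with si-miR-671 (adjusted p = 0.77). SMAD3 differed by -0.257 at 30 min with si-miR-20a (adjusted p = 1.0) and by 0.269 at 60 min with si-miR-671 (adjusted p = 0.43). Limma's test of the difference itself called none of the 5, and each rests on 2 arrays a group.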

How the results depend on the processing

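All 20 called values of the members kept their direction in each of 37 settings; 12 kept their call in all of them and 19 without any 1 of the 24 arrays, the exception being SMAD3 with si-miR-20a. Counts of members called without 1 array ran from 1 to 1, 3 to 4 and 6 to 8 for EGF at 30, 60 and 120 min, from 4 to 6 for si-miR-20a, 3 to 3 for si-miR-671, 2 to 3 between them and 0 to 0 for both response differences. Unadjusted permutation gave 7 members at 60 min of EGF. Control arrays alone gave 3 at 120 min, losing TGFB2, BAMBI and SKIL. The arrays at 0 and 30 min gave 1 for si-miR-671, where as many arrays at 60 and 120 min gave 4. What caused these changes in count was not tested. With the replicate block, which pairs arrays by number only, members called were 1, 3, 6, 5, 3 and 2 in the 6 averaged comparisons, and no member's call changed.

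Over all probe sets the called counts were 149, 517 and 2607 for EGF, 4771 and 2820 for the oligonucleotides and 884 between them. Control arrays alone gave 65, 154 and 576 for EGF, and leaving out the si-miR-671 arrays gave 78, 265 and 1258. A 0.01 level gave 322 and 1383 for EGF at 60 and 120 min, 3051 and 1610 for the oligonucleotides and 308 between them. The arrays at 0 and 30 min gave 2328 for si-miR-20a, 546 for si-miR-671 and 1461 between them, where those at 60 and 120 min gave 219. A fit on the compared arrays gave 1390 at 120 min of EGF and 370 between the oligonucleotides, where leaving out dim probe sets gave 1354 and single arrays moved the count from 478 to 1512. Response differences, 3 and 10 probe sets, ran from 0 to 15 and from 3 to 92.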
